A study of Mus musculus with 6 samples.

Results

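Genes of MHC antigen presentation and of the immunoproteasome were followed in the cortex of mice without HtrA2, a mitochondrial protease. The genes were chosen by name for their function (H2-D1, B2m, Tap1, Tap2, Tapbp, Nlrc5, Psmb8, Psmb9, Cd74 and H2-Ab1), and are 10 of the 18193 genes that the array names. They are measured by 26 of 45037 probe sets, counting only those annotated to 1 gene symbol. Cortex total RNA came from 29-day-old littermates of 2 genotypes, with 3 arrays of HtrA2 wild type (WT) mice and 3 arrays of HtrA2 knockout (KO) mice. No treatment, strain background or sex is named in the labels, and whether each array is of a separate animal is not said there. A p-value here thus covers the spread among these arrays, which may be technical in part. The series asked which transcripts differ in a cortical region that its submitters describe as free of neuron loss.

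MHC class I molecules carry peptides cut from proteins inside the cell to the cell surface, where CD8 T cells inspect them. A heavy chain such as H2-D1 pairs with the light chain beta-2-microglobulin, and the pair is loaded with peptide in the endoplasmic reticulum, after proteasomes, including immunoproteasomes, have made the peptide and a transporter has carried it across the membrane. MHC class II molecules present peptides from engulfed material and are, in the brain, mainly a property of macrophages and activated microglia, while class I genes are expressed at low levels by many brain cells and are induced by interferons.

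The levels below are RMA values on the log2 scale, in the order of replicates 1, 2 and 3. RMA is a method that corrects the background of an array, makes the arrays' distributions alike and summarises the probes of a probe set. A difference is KO minus WT and is given with its standard error, and n = 3 in each group throughout. A probe set was called when limma's moderated test gave an adjusted p under 0.05, adjusted by Benjamini-Hochberg across the 45037 probe sets. In bulk tissue, fewer cells of a type and less RNA per cell cannot be told apart.

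The knocked-out gene was checked first. At 1 Htra2 probe set the level was 8.89, 8.86 and 9.02 in WT and 6.42, 7.08 and 6.45 in KO, with every KO array below every WT array. The other Htra2 probe set was higher in KO, by 1.11 ± 0.08, and the position of its probes relative to the deletion is not known here, so it checks no label. KO replicate 2 stood apart from the other arrays. Its lower quartile over all probe sets was 4.90, against 4.76 to 4.82 on the other arrays, and its SD was 2.34, against 2.39 to 2.41.

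Of the 26 probe sets of the 10 genes, 2 were called higher in KO cortex and 0 lower by limma, and both name H2-D1. At an unadjusted p under 0.05, 9 were higher and 0 lower. Over all probe sets 1.77% were called in either direction, 0.884% were called higher, and 8.33% were higher at an unadjusted p under 0.05. Every KO array lay above every WT array at 10 of the 26 probe sets, where this held for 11.6% of all probe sets, and the reverse held at 0. The difference was above 0 at 22 of the 26 and below 0 at 4. The median difference was 0.13, and 0.25 with only the brightest probe set of each gene, against 0.00482 over all probe sets. The other 9 genes had no called probe set.

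**Figure D1:**
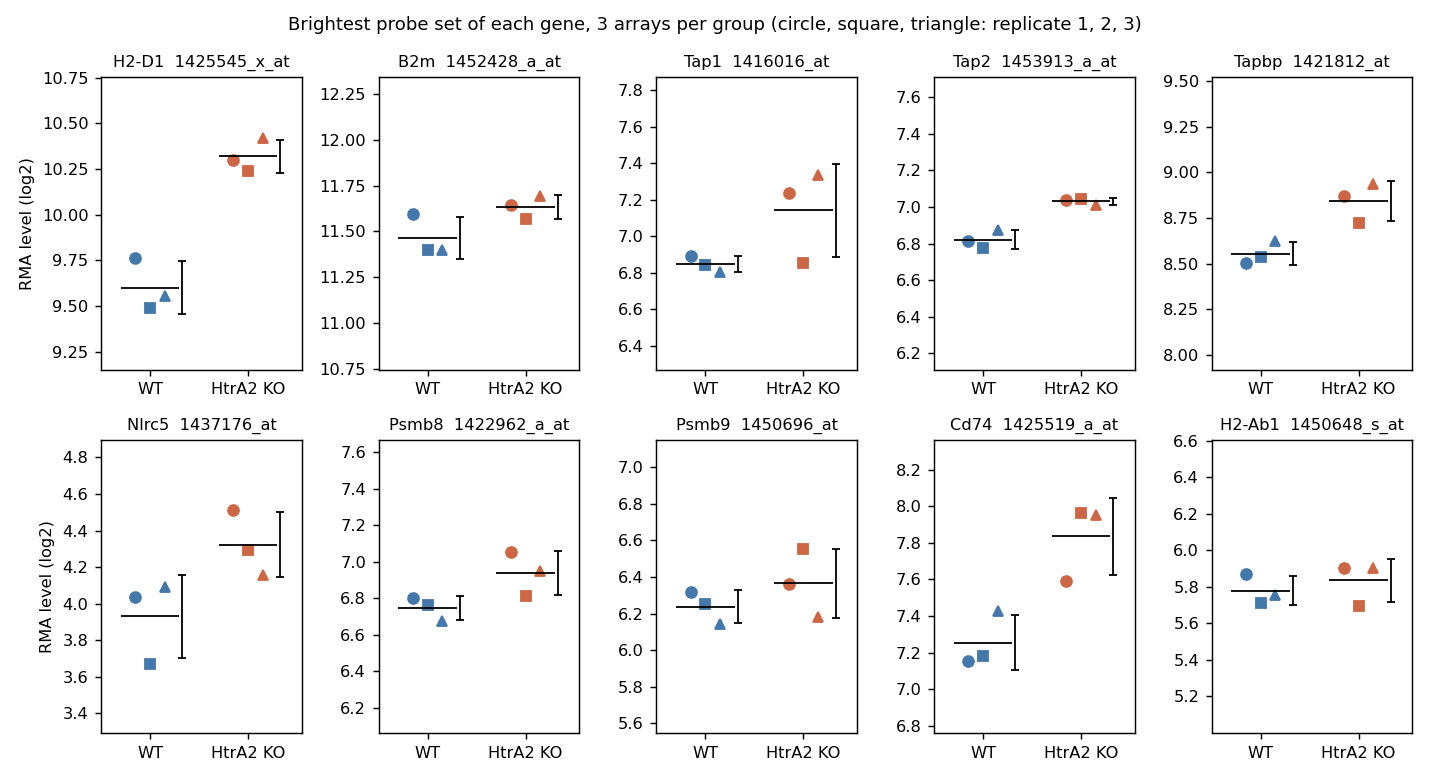
RMA level on the log2 scale of the brightest probe set of each of the 10 genes on each array, with WT in blue, HtrA2 KO in orange, the mean as a line and the SD as a bar; each panel has its own axis range. The KO arrays lie above all WT arrays for H2-D1, Tap2, Tapbp, Nlrc5, Psmb8 and Cd74, and the groups overlap for B2m, Tap1, Psmb9 and H2-Ab1.

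H2-D1, a classical class I heavy chain, was the member with the largest difference. Its brightest probe set (1425545_x_at) read 9.76, 9.49 and 9.56 in WT and 10.30, 10.24 and 10.42 in KO. All 3 KO arrays were above all WT arrays, and the level rose by 0.72 ± 0.10, a 1.64-fold difference (limma adjusted p = 0.0167). A second bright probe set (1451784_x_at) read 9.77, 9.43 and 9.41 in WT and 10.27, 10.18 and 10.47 in KO. It rose by 0.77 ± 0.12, or 1.70-fold (limma adjusted p = 0.0275), again with no overlap. On both, replicate 1 was the highest WT array and replicate 3 the highest KO array.

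The other 7 probe sets of H2-D1 were dimmer and were not called. The brightest of them (1451683_x_at) read 6.37, 6.15 and 6.15 in WT and 6.88, 6.37 and 7.12 in KO, a difference of 0.57 ± 0.18 with a limma adjusted p of 0.154. KO replicate 2 was there close to the highest WT array. At 1426324_at the difference was 0.37 ± 0.13 (limma adjusted p = 0.198), and at the remaining 5 it lay between 0.00193 and 0.14. Every KO array lay above every WT array at 5 of the 9 probe sets of the gene, where this held for 11.6% of all probe sets. All 9 differences were above 0, as were 23126 of the 45037 over all probe sets. The sign was not stable at the dim ones. Without KO replicate 2 the difference was -0.14 at 1452544_x_at, -0.15 at 1425614_x_at and -0.12 at 1451934_at. Without KO replicate 1 it was -0.02 at 1427651_x_at. Probe sets of the same gene are not separate counts. Of the 9, 6 were below the median brightness of the array, which was 6.42. The suffix of 7 of the 9 names, "_x_at", is the manufacturer's mark for probes that may bind several related sequences. RNA of other class I heavy chains can therefore add to the signal of both called probe sets, and the rise cannot be assigned to H2-D1 alone. A further pair of probe sets is annotated to H2-D1 together with other genes and was not counted. They differed by 0.15 ± 0.09 and 0.10 ± 0.08, and neither was called.

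**Figure D2:**
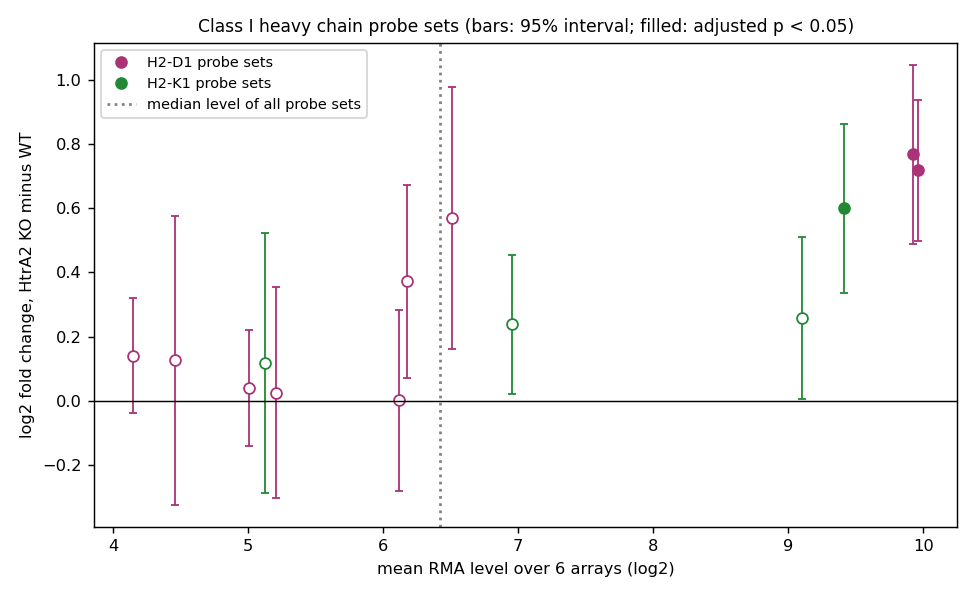
Difference between HtrA2 KO and WT (log2, with its 95% interval) against the mean RMA level over 6 arrays (log2) for each probe set of H2-D1 and of H2-K1, another classical heavy chain; filled points passed the test and the dotted line marks the median level of all probe sets. The 3 filled points are the 2 brightest H2-D1 probe sets and the brightest H2-K1 probe set.

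B2m, the light chain shared by class I molecules, was bright on every array. Its brighter probe set (1452428_a_at) read 11.60, 11.40 and 11.40 in WT and 11.64, 11.57 and 11.69 in KO. The difference was 0.17 ± 0.08 (limma adjusted p = 0.371), with a 95% interval from -0.03 to 0.36, and WT replicate 1 lay among the KO arrays. The second probe set differed by 0.16 ± 0.10 (limma adjusted p = 0.471). The gap between H2-D1 and B2m within each array was compared as well, a pair chosen after the values had been seen. The H2-D1 level minus the B2m level was -1.83, -1.91 and -1.84 in WT and -1.35, -1.33 and -1.27 in KO. H2-D1 was thus 0.55 ± 0.03 higher relative to B2m in KO. The exact permutation test (two-sided) gave p = 0.1, the smallest p that 3 against 3 arrays allow, and 0.167 after adjustment over the 5 gene pairs compared in this way.

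The promoters of the class I pair are shown because they are the members with the brightest probe sets, 1 of which was called and 1 not. RefSeq's promoter table (GRCm38.p6) held 6 of the 10 genes. Class I promoters are known to carry an X2 and a Y box, bound by a complex that Nlrc5 joins, and an interferon-stimulated response element (ISRE). Each line is the 200 bases before the start site, 5′ to 3′ on the plus strand, at chr17:35262894-35263093 for H2-D1 and chr2:122147487-122147686 for B2m. Capitals mark a match to AANNGAAA, a part of the ISRE, on either strand, and the pair TGACG (X2 core) and ATTGG (Y box core) 15 to 25 bases apart.
H2-D1: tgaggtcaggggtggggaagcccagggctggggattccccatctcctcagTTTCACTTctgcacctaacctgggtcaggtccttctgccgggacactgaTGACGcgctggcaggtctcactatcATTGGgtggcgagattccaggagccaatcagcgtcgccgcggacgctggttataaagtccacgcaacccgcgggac
B2m: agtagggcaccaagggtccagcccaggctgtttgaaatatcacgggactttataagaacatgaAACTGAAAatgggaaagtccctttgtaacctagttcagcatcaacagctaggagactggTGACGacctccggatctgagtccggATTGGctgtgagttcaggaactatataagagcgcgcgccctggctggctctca

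The spaced X2 and Y pair lay at positions -101 to -72 of H2-D1 and -78 to -49 of B2m, counted from the start site, and 0.435% of all 32851 promoter windows of 250 bases before and 50 after a start site hold it on either strand. The motifs and the spacing were chosen after these promoters had been read, so these shares describe the match and test nothing. AANNGAAA is common, with a match in 23.9% of windows. The ISRE was searched in 3 overlapping forms: GAANNGAAA (7.52% of windows) was found for H2-D1 and not for B2m, and GAAANNGAAA (3.44%) for B2m and not for H2-D1. The kappaB consensus (8.46%) was matched in both windows. TTCNNNGAA, the core of the interferon-gamma element (8.30%), was found in neither, and among the 6 windows only in that of Psmb8.

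Tap1 and Tap2 form the transporter that moves peptides into the endoplasmic reticulum, and tapasin, encoded by Tapbp, bridges it to class I molecules. Tap1 (1416016_at) read 6.89, 6.84 and 6.81 in WT and 7.24, 6.85 and 7.34 in KO, a difference of 0.29 ± 0.12 (limma adjusted p = 0.282). KO replicates 1 and 3 were above all WT arrays, and KO replicate 2 was at the WT level. Without KO replicate 2 the difference was 0.44 and was called (limma adjusted p = 0.0196). The other 3 Tap1 probe sets, all dimmer, differed by 0.11, 0.11 and -0.18.

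Tap2 read 6.82, 6.78 and 6.87 in WT and 7.04, 7.05 and 7.01 in KO. The groups were apart by 0.21 ± 0.07, and the KO arrays were close to each other, but the probe set was not called (limma adjusted p = 0.176). Tapbp (1421812_at) read 8.50, 8.54 and 8.63 in WT and 8.87, 8.72 and 8.94 in KO, 0.29 ± 0.08 apart (limma adjusted p = 0.133). It too was called without KO replicate 2, at a difference of 0.35 (limma adjusted p = 0.0370). Its second probe set differed by -0.01 ± 0.09, so the probe sets of this gene did not move alike.

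Nlrc5, the transactivator of class I genes, is read by a single dim probe set. It gave 4.03, 3.67 and 4.09 in WT and 4.51, 4.29 and 4.16 in KO, and the lowest KO array lay 0.07 above the highest WT array. The difference of 0.39 ± 0.13 was not called (limma adjusted p = 0.192).

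Psmb8 and Psmb9 encode catalytic subunits that replace constitutive ones when an immunoproteasome is assembled. Psmb8 (1422962_a_at) read 6.80, 6.76 and 6.67 in WT and 7.05, 6.81 and 6.95 in KO, 0.19 ± 0.09 apart (limma adjusted p = 0.310). The groups were separate by little, since KO replicate 2 was 0.01 above the highest WT array. Psmb9 read 6.32, 6.25 and 6.14 in WT and 6.36, 6.55 and 6.18 in KO, and the groups overlapped (0.13 ± 0.11, limma adjusted p = 0.625). The dim second Psmb8 probe set differed by -0.07.

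The RNA level of an immunoproteasome subunit minus that of its constitutive counterpart was taken within each array. The pairs were chosen after the values had been seen, and RNA levels do not measure replacement in the assembled proteasome. Psmb8 minus Psmb5 was 0.17 ± 0.12 higher in KO (exact permutation p = 0.3), and Psmb9 minus Psmb6 was lower by 0.13 ± 0.11 (exact permutation p = 0.4). Psmb10, the third such subunit, minus Psmb7 was 0.32 ± 0.08 higher, with every KO array above every WT array (exact permutation p = 0.1). After adjustment over the 5 pairs these p-values were 0.375, 0.4 and 0.167. With 3 arrays against 3 the exact p cannot go below 0.1, so no pair could pass a threshold of 0.05.

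Tap1 and Psmb9 start back to back on opposite strands, and the stretch between their start sites is shown because the neighbours share it. It is chr17:34187331-34187555 (GRCm38.p6, RefSeq), 225 bases on the plus strand, which is the strand of Tap1. Capitals mark TGACG and ATTGG on either strand, found in 20.8% and 37.4% of windows.
Tap1-Psmb9: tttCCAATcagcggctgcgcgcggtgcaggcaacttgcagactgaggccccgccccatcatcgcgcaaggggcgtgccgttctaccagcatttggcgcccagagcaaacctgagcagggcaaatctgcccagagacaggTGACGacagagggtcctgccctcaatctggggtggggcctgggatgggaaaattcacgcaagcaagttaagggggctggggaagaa

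The cores in it are not in the spaced order found at H2-D1 and B2m, and none of the 3 ISRE forms was matched. Of the 10 genes, 7 lie on the same chromosome, in the order Tapbp, Psmb9, Tap1, Psmb8, Tap2, H2-Ab1 and H2-D1. Psmb9, Tap1, Psmb8 and Tap2 are direct neighbours among protein-coding genes. At their brightest probe sets these 4 neighbours differed by 0.13, 0.29, 0.19 and 0.21, and none was called.

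Cd74, the invariant chain that guides class II molecules, had the largest difference after H2-D1. Its probe set read 7.15, 7.18 and 7.43 in WT and 7.59, 7.97 and 7.95 in KO. All KO arrays were above all WT arrays, by 0.58 ± 0.12 on average, and the limma adjusted p of 0.0645 missed the threshold. Over 15 alternative settings this p ranged from 0.0183 to 0.272, and 5 of them called the gene. H2-Ab1, a class II beta chain, did not show such a gap. Its brightest probe set read 5.87, 5.71 and 5.76 in WT and 5.90, 5.70 and 5.90 in KO, and its 3 probe sets differed by 0.06, 0.11 and -0.04, each with a 95% interval that includes 0. Cd74 minus H2-Ab1 within each array was 0.53 ± 0.20 higher in KO (exact permutation p = 0.1, adjusted over the 5 pairs 0.167).

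Brightness went with the size of the difference among the members, in a split made after the values had been seen. Of the 11 probe sets at or above the median brightness, 2 were called higher and 7 had no overlap with KO higher, against 1.60% and 17.3% of all probe sets in that range. Of the 15 dimmer probe sets, 0 were called higher and 3 had no overlap with KO higher, against 0.169% and 5.89% of all dim probe sets. The rank of KO replicate 2 was also counted after the values had been seen. It was the lowest KO array at 8 of the 11 bright members, and over all bright probe sets this held for 51.4%. At the 15 dim members it was the highest KO array at 7, and over all dim probe sets at 58.7%. Without this array the called member probe sets went from 2 to 5, which are of 3 genes (H2-D1, Tap1 and Tapbp), and the called share of all probe sets went from 1.77% to 6.74%. Without both arrays numbered 2, 0 member probe sets were called.

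**Figure D3:**
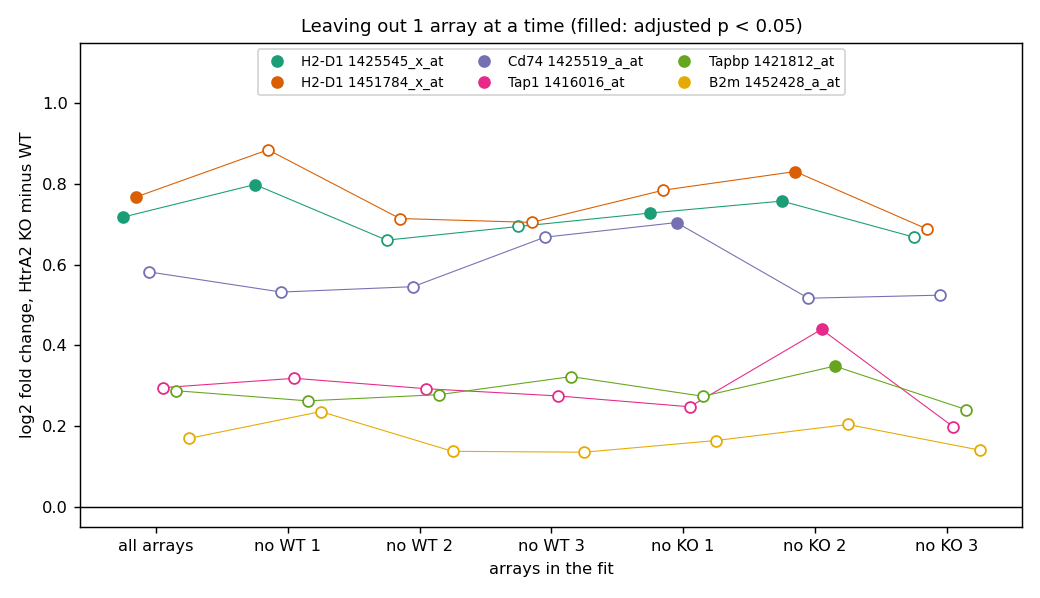
Difference between HtrA2 KO and WT (log2) for 6 probe sets of 5 member genes with all arrays and with each array left out in turn; filled points had an adjusted p under 0.05. Every difference stays above 0, and the points for Tap1 and Tapbp are filled only without KO replicate 2.

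The H2-D1 calls depended on which arrays were in the fit, as did calls over all probe sets. Without WT replicate 2, WT replicate 3 or KO replicate 3, the share of all probe sets called went from 1.77% to 0.144%, 0.238% and 0.229%. The brightest probe set kept its call in 3 of the 6 omissions of 1 array, and lost it without WT replicate 2 (limma adjusted p = 0.108), WT replicate 3 (0.0785) and KO replicate 3 (0.0735), at differences of 0.66, 0.69 and 0.67. The second probe set kept its call in 1 of the 6, without KO replicate 2.

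The other genes of the pathway were taken from lists by function, 79 genes of which 60 were measured by 110 probe sets. Of these probe sets, 3 were called higher, each for a different gene, and 0 lower, where 0.884% of all probe sets were called higher. H2-K1, a classical heavy chain, rose at 1451931_x_at by 0.60 ± 0.11 (limma adjusted p = 0.0461), from 9.26, 9.01 and 9.08 in WT to 9.75, 9.51 and 9.89 in KO. Its other 3 probe sets differed by 0.12, 0.24 and 0.26 and were not called. The called one carries the same "_x_at" mark as those of H2-D1, so the rises of H2-D1 and H2-K1 may share RNA and are not separate counts. Over 13 measured heavy chain and class I-like genes, 1 of 20 probe sets was called.

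Psme1, a subunit of the PA28 activator of the proteasome, rose by 0.44 ± 0.08 (limma adjusted p = 0.0421), from 9.79, 9.78 and 9.98 in WT to 10.30, 10.31 and 10.27 in KO. Psmb10 differed by 0.33 ± 0.09 and was not called (limma adjusted p = 0.111). Among the 3 constitutive catalytic subunits 0 were called, with differences of 0.25 for Psmb6, 0.02 for Psmb5 and 0.01 for Psmb7. Immunoproteasome partners had 1 called of 4 probe sets, where 0.884% of all probe sets were called higher. The other genes of that list, Pomp and Psmb11, differed by -0.16 ± 0.08 and -0.09 ± 0.11 and were not called. For Pomp every KO array lay below every WT array, which held for 11.6% of all probe sets.

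Irf9, the DNA-binding part of the factor that type I interferon activates, rose by 0.85 ± 0.15 (limma adjusted p = 0.0372), from 6.59, 6.65 and 6.65 in WT to 7.60, 7.11 and 7.74 in KO. It was the only 1 of 44 probe sets of 22 regulators that was called. Rfx5, a subunit of the complex that binds the X box, differed by 0.36 ± 0.07 and missed the threshold (limma adjusted p = 0.0516). Rfxank, the regulator with the next smallest p, differed by -0.24 ± 0.07 at 1425670_at (limma adjusted p = 0.152), and by 0.05 and -0.06 at its other probe sets. Of the 44 differences 25 were above 0 and 19 below. Every KO array lay above every WT array at 9 and below at 4, against 11.6% of all probe sets in each direction. The calls of H2-K1, Psme1 and Irf9 each held in 1 of the 6 omissions of an array, that of KO replicate 2. Without WT replicate 2 their limma adjusted p-values were 0.224, 0.225 and 0.171, and 0.144% of all probe sets were called.

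Class I loading genes other than the members leaned the other way. Of 20 probe sets of 7 genes, 0 were called in either direction and 14 of the differences were below 0. At 10 every KO array lay below every WT array, where this held for 11.6% of all probe sets. At or above the median brightness it held for 3828 of 22519. The reverse held at 2 of the 20. The 10 are of Calr, Sec61a1, Pdia3, Canx and Hsp90b1, and probe sets of the same gene are not separate counts. All 3 probe sets of Calr, the chaperone calreticulin, were among the 10, with differences of -0.29, -0.27 and -0.27 and limma adjusted p-values from 0.111 to 0.123. All 3 were called lower under limma-trend with robust moderation. Sec61a1, a subunit of the translocation channel, differed by -0.41 ± 0.09 at 1 of its 6 probe sets (limma adjusted p = 0.0613). On the other side were Tapbpl, a relative of tapasin, with 0.31 ± 0.08 (limma adjusted p = 0.0870), and both probe sets of Erap1, a peptidase that trims peptides, with 0.36 and 0.21 and overlapping groups. Of 19 class II probe sets 0 were called. The differences nearest the threshold were 0.33 for Ifi30, -0.18 for H2-DMb2 and -0.22 for H2-Ea. Ifi30 is a thiol reductase of antigen processing, and the other genes are class II chains. The H2-DMb2 value is of a dim probe set with a mean level of 3.92. The other probe sets of H2-DMb2 differed by 0.13 and 0.01, and those of H2-Ea by 0.11 and 0.09.

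**Figure D4:**
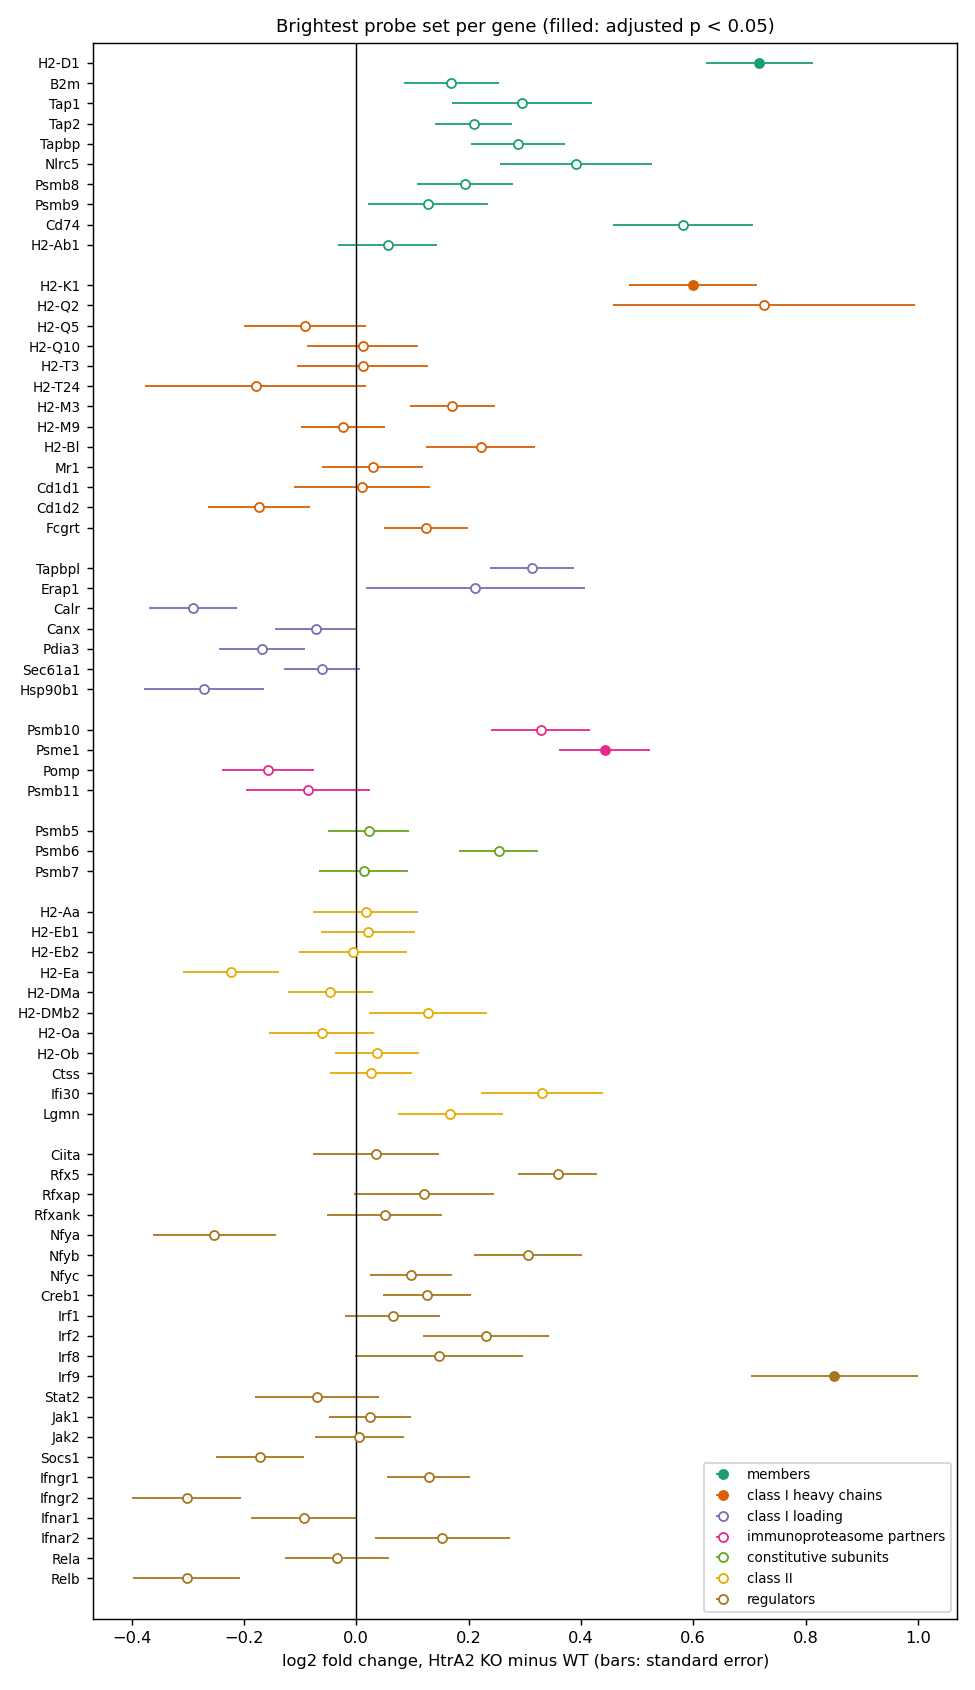
Difference between HtrA2 KO and WT (log2, with its standard error) at the brightest probe set of each measured gene, grouped by role, with the 10 members at the top; filled points had an adjusted p under 0.05. H2-D1, H2-K1, Psme1 and Irf9 are filled and lie right of 0, and the loading chaperones Calr, Canx, Pdia3 and Hsp90b1 lie left of 0.

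Marker genes of the cells that could carry these transcripts were summed on the linear scale and given as log2. Several sums were lower on every KO array than on every WT array. Over all probe sets, 398 of 45037 were called lower and 23126 differences were above 0. Every KO array lay below every WT array at 11.6% of single probe sets, and no such share was taken for sums. Cortical neuron markers were at 15.54 to 15.55 in WT and 15.41 to 15.44 in KO, with 1 of 7 genes called lower, and microglia markers at 12.50 to 12.64 in WT and 12.16 to 12.33 in KO, with 3 of 7 microglia genes called lower. Astrocyte markers were at 13.58 to 13.64 and 13.43 to 13.51, with 2 of 5 called lower. Of 19 astrocyte differences 7 were above 0 and 12 below. Every KO array lay above every WT array at 4 of these probe sets and below at 7. Oligodendrocyte markers were at 14.89 to 15.03 and 14.73 to 14.82, with 0 called. Blood markers were at 7.96 to 7.98 and 6.97 to 7.56, with 1 of 3 called lower, and endothelial markers at 11.62 to 11.71 and 11.23 to 11.47, with 0 called. The endothelial sum leans on its brightest gene, Slco1c1, which differed by -0.61. The mean log2 level over the endothelial genes was 8.43 in both groups, and of 9 endothelial differences 4 were above 0 and 5 below. Dendritic cell markers were at 8.80 to 8.84 in WT and 8.58 to 8.79 in KO, a narrow gap, with 0 called. Meningeal fibroblast markers were at 11.34 to 11.83 in WT and 11.84 to 12.37 in KO, with 0 of 7 called and 13 of 13 differences above 0. Markers of T and NK cells (8.94 to 9.05 in WT, 8.83 to 9.05 in KO), of B cells (7.29 to 7.31 and 7.24 to 7.38) and of border macrophages (9.04 to 9.14 and 8.90 to 9.53) overlapped between the groups, with 0 called. Of the T and NK markers 6 of 8, of the B cell markers 4 of 4 and of the dendritic cell markers 3 of 5 were below the median brightness. The part of any of these cells in the members' differences was not tested.

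Each group held 1 array with a high level of Xist, the RNA of the inactive X chromosome. It was at 10.90 in WT replicate 1, against 6.34 and 6.47 on the other WT arrays, and at 11.01 in KO replicate 3, above both other KO arrays. Y-linked genes were low on those same arrays. Each group thus held RNA of more than 1 animal, though whether all its arrays are of separate animals is not known. WT replicate 1 and KO replicate 3 were the highest arrays of both groups at 6 of the 26 member probe sets, all 6 among the 11 bright ones, a count made after the values had been seen. Over all bright probe sets this held for 12.8%. With the Y-linked level added to the fit the H2-D1 difference was 0.72 (limma adjusted p = 0.0165), and the same 2 H2-D1 probe sets were called.

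Genes outside these lists were ranked by how closely they followed the members, as Pearson's r over the 6 arrays with the mean of the 10 genes' brightest probe sets, each centred. Among 7255 probe sets, the 8 most alike were Fxyd5 (r = 0.997), Stc2, Prim1, Washc3, Rbm43, Nudt18, Pecr and Mrps10, all at 0.991 or above. The 5 most opposite were C1ql3 (r = -0.998), Apc, Gpr17, Scd1 and Ier5. The 6 arrays share the difference between genotypes, so any gene that differs between the groups scores high in size. Among the members themselves, r was 0.99 for H2-D1, 0.94 for Tap2, 0.92 for Tapbp, 0.86 for B2m and 0.36 for Psmb9, and each gene is itself part of that mean.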

How the data were processed

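Total RNA of cortex was measured on 6 Affymetrix arrays. The deposited values are log2 levels per probe set made by the authors with RMA, per the submitters' processing notes, which name no version. No source used here gives the log base, and the range of the values was read as base 2. RMA makes the arrays' distributions nearly alike and so hides a shift common to most genes. From the deposited values, 64 control probe sets were left out. The other 45037 were fitted without a brightness filter with lmFit and eBayes of limma 3.58.1 (two-sided tests, group as the only term) in R 4.3.3, with Benjamini-Hochberg adjustment. The fit was tested on simulated data. Gene names come from the platform annotation, which gives 34945 probe sets 1 symbol, updated through RefSeq. With no counts, precision is limited by the number of arrays.

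The members, the gene lists and the alternatives were chosen with earlier results of these data known. Named genes were all members, the called genes of the other pathway lists and, for some of these lists, up to 3 more by smallest p. Erap1, Canx, Pdia3 and Hsp90b1 were named beyond this rule. To these were added the 8 genes most alike and 5 most opposite among probe sets with an SD of at least 0.2. The labels do not say that replicate numbers pair the samples. The deviations of same-numbered arrays correlated at -0.196, -0.0405 and -0.169, which cannot decide it with so few arrays. The alternatives were a replicate block, leaving out dim probe sets or arrays, limma-trend with robust moderation, a Y-linked covariate, array weights, median centring, a second quantile normalization, 1 probe set per gene and a threshold of 0.1.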

Additional observations from a re-analysis of the deposited data

How the results depend on the processing

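Counts of calls at an adjusted p under 0.05 moved with the settings. The called probe sets of the members and of the other pathway lists stayed above 0 in every setting. Direction was not followed over all probe sets. In the main fit the counts were 2 for the members, 3 for the other pathway lists and 796 for all probe sets. Leaving out 1 array gave 0 to 5 for the members, 0 to 11 for the pathway lists and 65 to 3037 for all. The 5, 11 and 3037 came without KO replicate 2 and the 65 without WT replicate 2. Leaving out both arrays numbered 2 gave 0, 1 and 314. Array weights gave 6, 18 (of which 5 lower, Calr among them) and 4205. With the replicate number as a block, a pairing that the labels do not give, they were 0, 0 and 154. The brightest H2-D1 probe set then had a limma adjusted p of 0.0578. The pathway lists and all probe sets gave 1 and 441 with a Y-linked covariate, 5 and 1757 without dim probe sets, 8 (of which 3 lower, all Calr) and 1770 with limma-trend and robust moderation together, and 6 and 2035 at a threshold of 0.1. The median difference over the members' probe sets, 0.13, was 0.25 with 1 probe set per gene and 0.29 without dim ones. The first keeps fewer probe sets of each gene and the second fewer dim ones. The cause of these movements was not tested. The brightest H2-D1 probe set was called in 10 of 15 alternatives. Over 29 named probe sets and their alternatives, 345 of 404 comparisons kept their side of the threshold or their value, 35 lost a call, 11 gained one and 13 moved. Those 13 lay on the other side of 0 and were all of member probe sets without a call in the main fit. Of the members' 26 probe sets 15 were dimmer than the median, and 3 arrays a group limit the precision.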
